A study of Mus musculus with 6 samples.

Results

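DNA methylation was examined around 10 transcription factor genes that set the state of a CD8+ T cell: Tbx21, Eomes, Zeb2, Prdm1, Id2, Id3, Tcf7, Lef1, Bach2 and Tox. The members were all CpGs in the gene bodies and within 10 kb on either side (GRCm38) that had 5 or more reads in each of 6 libraries, which gave 1072 of the 1176037 CpGs measured. The libraries came from reduced representation bisulfite sequencing (RRBS), in which DNA is cut by MspI at CCGG and unmethylated cytosines are converted, so that each read near such a site reports the methylation of its CpGs. They were made from magnetically enriched lymph node CD8+ T cells of C57BL/6N mice, with 2 mice each of WT, hSTAT5B (hSTAT5B +/T, carrying a transgene for unmutated human STAT5B) and hSTAT5BN642H (hSTAT5B N642H +/T, carrying the human gene with the activating N642H mutation). Both transgenes were driven by the hematopoietic Vav1 promoter and each came from 1 mouse line. WT mice carried no transgene, and the study worked with young adult mice and describes the hSTAT5BN642H mice as developing a CD8+ T cell lymphoma. The paper calls the hSTAT5BN642H mice diseased where it describes taking lymph node CD8+ T cells for profiling. By flow cytometry of spleens it reports a larger share of CD8+ cells with effector memory markers in diseased mice than in WT. The paper also describes many diseased CD8+ cells with markers like those of central memory cells, and high levels of the activation marker CD25. Genotype therefore cannot be told apart here from disease or from the mix of cell states. Each value is an average over all cells of a library, so partial methylation in every cell cannot be told apart from a mixture of cells.

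T-bet (Tbx21) and Eomes are T-box factors that direct the cytotoxic program, and Zeb2, Blimp-1 (Prdm1) and Id2 act with them in effector cells. TCF-1 (Tcf7), LEF-1 (Lef1), Bach2 and Id3 are associated with naive and memory cells, and Tox with T cell development in the thymus and with persistent stimulation. Promoters of active and of poised genes are usually unmethylated in CpG islands, while gene bodies carry high methylation that is interrupted at regulatory elements.

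The libraries listed 2597893 to 3445555 CpGs with 43291086 to 67007186 reads on CpGs, and a median of 5 to 11 reads per CpG. Of the members, 626 had 10 or more reads in all libraries. WT replicate 1 stood apart at Cd8a, a gene that defines these cells. Over the window of Cd8a (14 CpGs) it was at 65.7%, while the other libraries lay between 29.8% and 42.6%. The mean over the 4 measured of 5 T cell marker windows was 66.7% in WT replicate 1 and 55.2% to 58.1% in the others, mostly through Cd8a, since WT replicate 1 was at 82.8% at Cd3d (76.4% to 80.5% in the others), 27.8% at Cd3g (22.9% to 25.3%) and within the range of the others at Cd3e. It was 51.7% to 54.7% over 7 of 8 B cell markers with the lowest value in WT replicate 1, 65.5% to 67.1% over 6 of 6 myeloid markers, and 45.7% to 46.9% over 3 of 3 CD4 T cell markers. The 3 NK cell markers had too few CpGs. Cell purity was not measured in these files, and counts against WT are also given without WT replicate 1.

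Reference sequence (GRCm38, from RefSeq) is shown for some of the stretches and single CpGs described below, chosen so that several genes and both directions are seen. It is written 5′ to 3′ on the strand of the gene, and the measured CpGs are in capitals. These places were picked by their values. Any p-value given for 1 of them below was taken from a test run on all CpGs measured. Those from reads pooled within genotypes ignore differences among mice and are descriptive only. The first is a stretch of the last coding part of Tbx21 (chr11:97098915-97099079, minus strand), with higher methylation in both transgenic genotypes.
Tbx21 coding: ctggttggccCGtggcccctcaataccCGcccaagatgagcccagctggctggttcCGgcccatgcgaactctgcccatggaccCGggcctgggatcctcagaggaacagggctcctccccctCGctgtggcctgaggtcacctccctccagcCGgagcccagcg
The next is in the first part of the long Lef1 introns (chr3:131125944-131126148, plus strand), with higher methylation in hSTAT5BN642H.
Lef1 intron: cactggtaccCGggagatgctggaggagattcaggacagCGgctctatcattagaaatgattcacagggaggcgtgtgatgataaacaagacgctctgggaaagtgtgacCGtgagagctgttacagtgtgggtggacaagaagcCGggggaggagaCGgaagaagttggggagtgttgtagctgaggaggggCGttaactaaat
The third crosses an intron end into a Lef1 coding exon (chr3:131200265-131200321, plus strand), with lower methylation in hSTAT5BN642H.
Lef1 exon edge: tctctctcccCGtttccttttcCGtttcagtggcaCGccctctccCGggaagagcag
The fourth lies upstream of Eomes (chr9:118468546-118468648, plus strand), with higher methylation in hSTAT5BN642H.
Eomes upstream: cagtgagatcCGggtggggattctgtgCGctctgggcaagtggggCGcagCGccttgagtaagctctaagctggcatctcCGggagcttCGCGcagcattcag
The last 4 are single CpGs with their surroundings, at Tcf7 (chr11:52254027-52254078, minus strand), Eomes (chr9:118480148-118480199, plus strand), Bach2 (chr4:32470892-32470943, plus strand) and Tbx21 (chr11:97116111-97116162, minus strand).
Tcf7 intron: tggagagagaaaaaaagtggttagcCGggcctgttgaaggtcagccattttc
Eomes intron: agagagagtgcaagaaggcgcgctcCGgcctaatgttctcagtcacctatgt
Bach2 intron: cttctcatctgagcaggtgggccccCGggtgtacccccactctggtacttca
Tbx21 promoter: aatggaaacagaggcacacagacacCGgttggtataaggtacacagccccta

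Levels below are unweighted means of percent methylation over the CpGs of a region, and library values are given in the order WT replicates 1 and 2, hSTAT5B replicates 1 and 2, and hSTAT5BN642H replicates 1 and 2. CpGs were assigned to the promoter (1000 bp before to 500 bp after any start of a coding transcript), exons, introns and the flanks, in that order of precedence. In WT the windows ranged from 61.3% in Prdm1 to 10.1% in Eomes, and Tbx21 (56.8%), Zeb2 (50.6%), Bach2 (48.1%), Tox (47.6%), Lef1 (42.4%), Tcf7 (20.6%), Id2 (15.8%) and Id3 (12.3%) lay between. The WT libraries of neighbours in this order did not overlap. The covered CpGs differ between the genes: 77 of the 150 Eomes CpGs and 9 of the 103 Prdm1 CpGs lay in CpG islands.

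The promoters of 8 of the 9 genes with promoter CpGs were under 10% in every library. Eomes lay between 0.763% and 2.34%, Lef1 between 1.22% and 2.26%, Zeb2 between 1.2% and 3.79%, and Tox between 0 and 1.98%. Id2 was at 3.97% or less, and Bach2 at 4.41% to 4.97%. Tbx21 was at 4.37% to 9.40%, and Tcf7 was at 4.19%, 5.22%, 4.43%, 4.08%, 2.75% and 3.21%, with both hSTAT5BN642H libraries lowest. Prdm1, which has starts inside the gene as well, was at 17.3% to 23.0%. No promoter differed by 5 points or more without overlap between the libraries, and for Id3 no promoter CpG was covered. Where a library had no methylated read, as WT replicate 1 at Id2 (180 reads), the count of 0 allows a share of up to 1.67% there. Among all genes the median promoter level in WT was 3.31%.

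The introns carried less methylation than those of most genes. In WT they were at 72.4% in Lef1, 70.4% in Bach2, 69.2% in Zeb2, 67% in Prdm1, 64.3% in Tbx21, 51.6% in Tox, 50.3% in Eomes, 36.5% in Tcf7, 4.76% in Id2 and 0 in Id3 (0 of 96 and 0 of 145 reads, which allow up to 3.12% and 2.07%). All 10 lay below the median of 86.2% over 12517 genes, and 6 lay below the lower quartile of 66%. Id2, Id3 and Eomes have short introns, with 3, 7 and 8 CpGs measured. The comparison with all genes was not matched for CpG islands or for distance from the start. Of the 37 intron CpGs that lay in islands, 14 were in Tox, 12 in Zeb2, 10 in Bach2 and 1 in Tbx21.

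**Figure D1:**
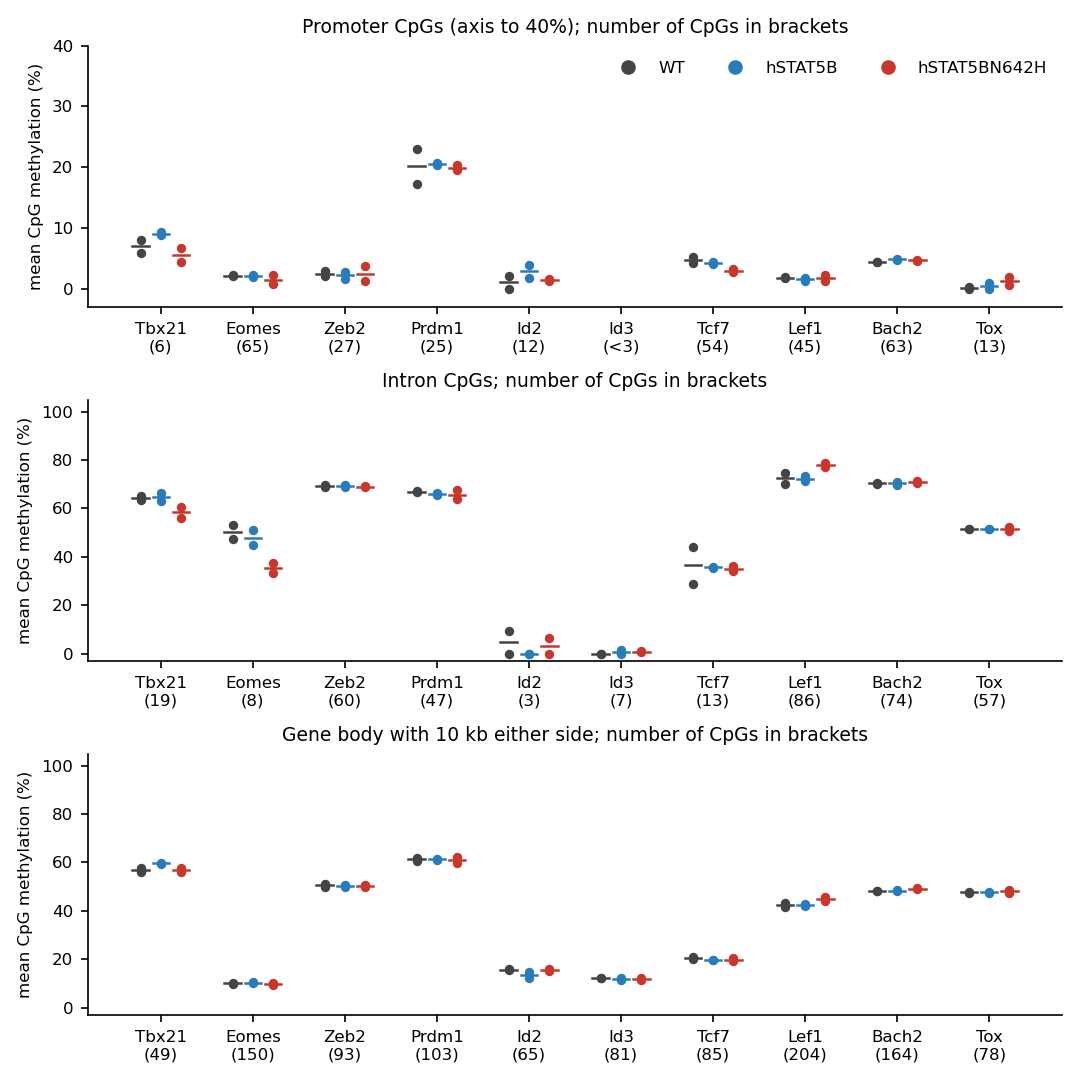
Mean CpG methylation (%) of promoters, introns and whole windows of the 10 genes. Each point is 1 library, each short line the mean of the 2 libraries of a genotype, and the number of CpGs is given under each gene. Most promoters lie under 10% in all libraries, and the intron means of Lef1, Eomes and Tbx21 in hSTAT5BN642H lie apart from WT.

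By unweighted means, whole windows differed little between genotypes. The differences of hSTAT5BN642H from WT ranged from -0.81 percentage points in Tcf7 to 2.42 in Lef1, with a median of -0.18, beside a median of -0.19 over all 17644 gene windows. Those of hSTAT5B from WT ranged from -2.21 in Id2 to 2.81 in Tbx21. By pooled reads, which give deeply read CpGs more weight, the ranges were -3.73 (Zeb2) to 4.29 (Lef1) for hSTAT5BN642H and -0.95 (Zeb2) to 8.87 (Tox) for hSTAT5B, and Id2 in hSTAT5B was at 0.18. The Tox window in hSTAT5B, which was 0.06 unweighted, had an unadjusted limma p of 0.0355 (adjusted p = 0.869, and 1.57e-18 by Fisher's exact test on pooled reads). With limma on the log2 ratio of methylated to unmethylated reads, adjusted over the whole table, 0 of 10 windows, 0 of 44 gene parts and 0 of 1072 CpGs passed an adjusted p of 0.05 in any comparison, where the whole table also had 0 of 17644, 0 of 58182 and 0 of 1176037 (0%). For hSTAT5BN642H against WT the lowest adjusted p (limma) was 0.737 for a window, 0.677 for a part and 0.728 for a CpG. An unadjusted limma p under 0.05 was found for 99 of the 1072 CpGs (9.24%, all CpGs 6.28%), 1 of 44 parts (2.27%, all parts 7.24%, the Tox downstream flank with 3 CpGs) and 0 of 10 windows (all windows 8.75%). With 2 libraries per genotype, a count of 0 does not show that the genotypes are alike. A quasi-binomial model of the reads called 53 parts (0.0911%), 6 windows (0.034%) and 0 CpGs (0%) over all genes and 0 of the members, where the lowest adjusted p was 0.196 for the Lef1 introns. Fisher's exact test on reads pooled within genotypes, which ignores differences among mice of a genotype, called 23 of the 1072 CpGs (2.15%, all CpGs 0.868%) and 11 of the 44 parts (25%, all parts 17.1%). Nothing below therefore passed a test that includes the spread between mice, and an exact permutation test of 2 libraries against 2 (two-sided) cannot give less than p = 0.333.

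For hSTAT5BN642H against WT, 7 of the 44 parts differed by 5 points or more with no overlap between the libraries. The Tbx21 exons, the Eomes upstream flank, the Lef1 introns and the Tcf7 upstream flank were higher, and the Tbx21 introns, the Tbx21 upstream flank and the Eomes introns were lower. Over all genes the shares were 4.6% higher for exons, 3.43% higher and 6.02% lower for introns, and 4.95% higher and 7.47% lower for upstream flanks. For hSTAT5B against WT, the Tbx21 exons were higher (all exons 4.36%), and the downstream flanks of Prdm1 and Id2 were lower (all downstream flanks 3.98%). Without WT replicate 1, 5 parts were higher and 3 lower for hSTAT5BN642H, and 3 were higher and 5 lower for hSTAT5B. For hSTAT5BN642H the Tcf7 introns and the Zeb2 downstream flank came in and the Tbx21 upstream flank dropped out. Leaving out a library eases the demand of no overlap. The shares over the parts of all genes were not computed for this setting, so these counts cannot be read as an excess.

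Differences at single CpGs were counted where both libraries of a genotype lay on the same side of both of the other and the means were 10 points or more apart. In hSTAT5BN642H against WT, 67 members were higher (6.25%, beside 3.9% of all CpGs) and 53 were lower (4.94%, beside 5.04%). Without WT replicate 1 the counts were 99 (9.24%, all CpGs 7.05%) and 86 (8.02%, all CpGs 8.42%), and without WT replicate 2 they were 102 (9.51%, all CpGs 8.67%) and 97 (9.05%, all CpGs 8.63%), with a smaller excess of higher CpGs. In hSTAT5B against WT, 42 were higher (3.92%, all CpGs 4.02%) and 48 lower (4.48%, all CpGs 3.57%), and without WT replicate 1, 74 were higher (6.90%, all CpGs 7.35%) and 86 lower (8.02%, all CpGs 6.53%). In hSTAT5BN642H against hSTAT5B, 78 were higher (7.28%, all CpGs 3.62%) and 45 lower (4.2%, all CpGs 5.23%). The first pair of comparisons shares the WT libraries, and CpGs on the same reads are not independent. The excess of higher CpGs came mainly from Lef1 and Tbx21. Lef1 held 28 of the 67 (13.7% of its 204 CpGs) and Tbx21 held 8 (16.3% of its 49), whereas the other 8 genes had between 1.54% (Id2) and 7.41% (Id3) of their CpGs higher.

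**Figure D2:**
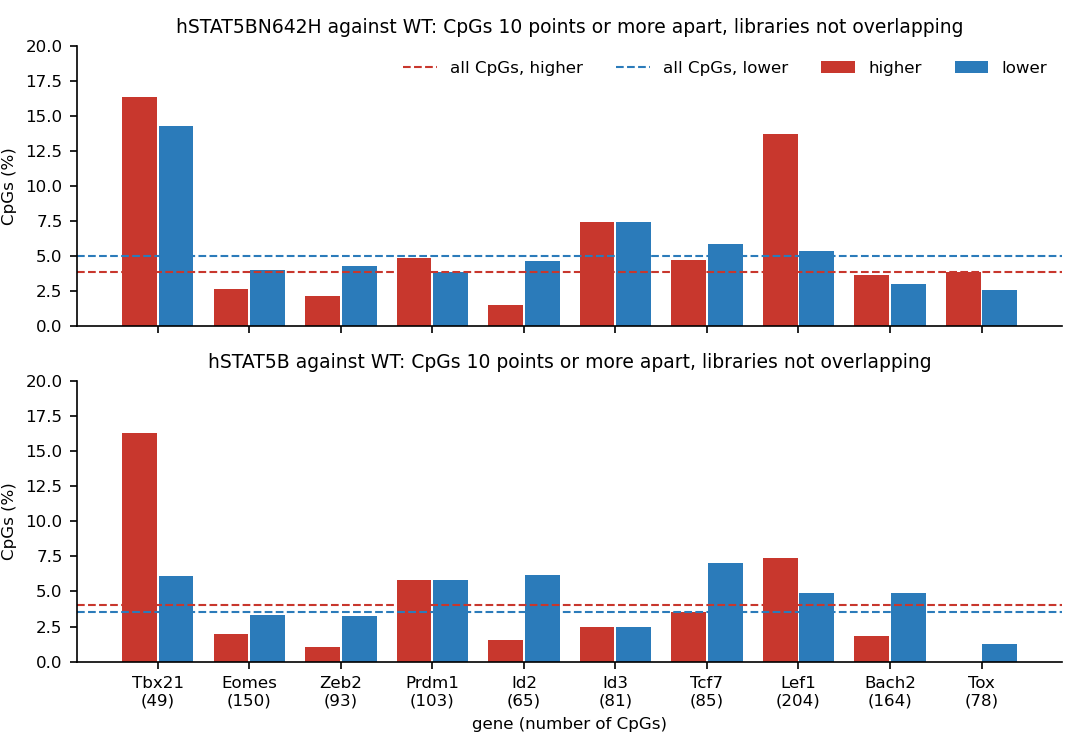
Share of the CpGs of each gene (%) that were higher (red bars) or lower (blue bars) by 10 points or more with no overlap between the libraries, for hSTAT5BN642H against WT (upper panel) and hSTAT5B against WT (lower panel). Dashed lines give the same shares over all 1176037 CpGs, 3.9% and 5.04% above and 4.02% and 3.57% below. Lef1 and Tbx21 have the tallest red bars for hSTAT5BN642H.

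Among the effector factors, Tbx21 differed most at its coding end. Its 12 exon CpGs were at 46.9%, 42.8%, 57.6%, 53.9%, 62.4% and 58.3%. The WT libraries lay below all 4 transgenic ones, by 15.5 points for hSTAT5BN642H (60.3% ± 2.96 against 44.8% ± 2.94, SD, n = 2) and by 10.9 points for hSTAT5B (55.8% ± 2.61, SD, n = 2). By pooled reads these were 9.98 and 3.92 points, and leaving out 1 library gave 13.4 to 17.6 for hSTAT5BN642H. The limma log2 ratio difference was 0.58 ± 0.33 (SE, adjusted p = 0.772). Most of it lay in the 145 bp of coding sequence shown above, about 16.3 kb from the start. Over its 6 CpGs the libraries were at 33.6%, 28.0%, 60.3%, 46.3%, 63.9% and 55.7%, on 86 to 187 reads per library. There hSTAT5BN642H was 29.0 points above WT, and 31.8 points without WT replicate 1. At the CpG at chr11:97099022 the reads were 5 of 10, 5 of 13, 11 of 11, 12 of 18, 25 of 26 and 25 of 32 methylated, so both transgenic genotypes were high on few WT reads. At the neighbouring CpG at chr11:97099051 they were 6 of 10, 5 of 13, 9 of 10, 13 of 17, 25 of 26 and 24 of 28.

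The 5′ part of Tbx21 lay the other way. The 19 intron CpGs were at 63.6%, 65.1%, 63.1%, 66.4%, 60.5% and 56.3%, 5.96 points lower in hSTAT5BN642H than in WT, while hSTAT5B overlapped WT. The difference was -3.53 over CpGs with 10 or more reads, where hSTAT5B was 3.38 above WT, and -3.84 without hSTAT5BN642H replicate 2. The 10 upstream CpGs were at 88.8%, 86%, 87.1%, 85.7%, 79.9% and 84.3%, a difference of -5.28 that was -3.05 without hSTAT5BN642H replicate 1. A stretch of 7 CpGs (chr11:97109114-97109348), 5.98 kb into the gene, was at 83.7%, 89.5%, 84.0%, 91.5%, 74.8% and 72.7%. Its CpG at chr11:97109114, 6217 bp from the start, had 10 of 13, 23 of 24, 12 of 18, 29 of 32, 19 of 30 and 7 of 17 reads methylated. In the promoter, the CpG at -805 bp from the start was methylated in 12 of 39, 10 of 28, 8 of 21, 14 of 40, 4 of 33 and 1 of 23 reads. The hSTAT5BN642H libraries, at 12.1% (95% Wilson interval 4.82% to 27.3%) and 4.35% (0.772% to 21%), lay below the other 4, which were between 30.8% and 38.1%. This CpG lies outside the CpG island, in which 5 of the 6 promoter CpGs of Tbx21 lie. At -1030 bp, both transgenic genotypes were lower, with 23 of 31, 28 of 39, 16 of 28, 6 of 15, 13 of 25 and 5 of 12 reads methylated. Over the whole window these opposite differences left Tbx21 at 57.6%, 56.1%, 59.8%, 59.6%, 57.9% and 56.1%. Wilson intervals cover counting error only.

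**Figure D3:**
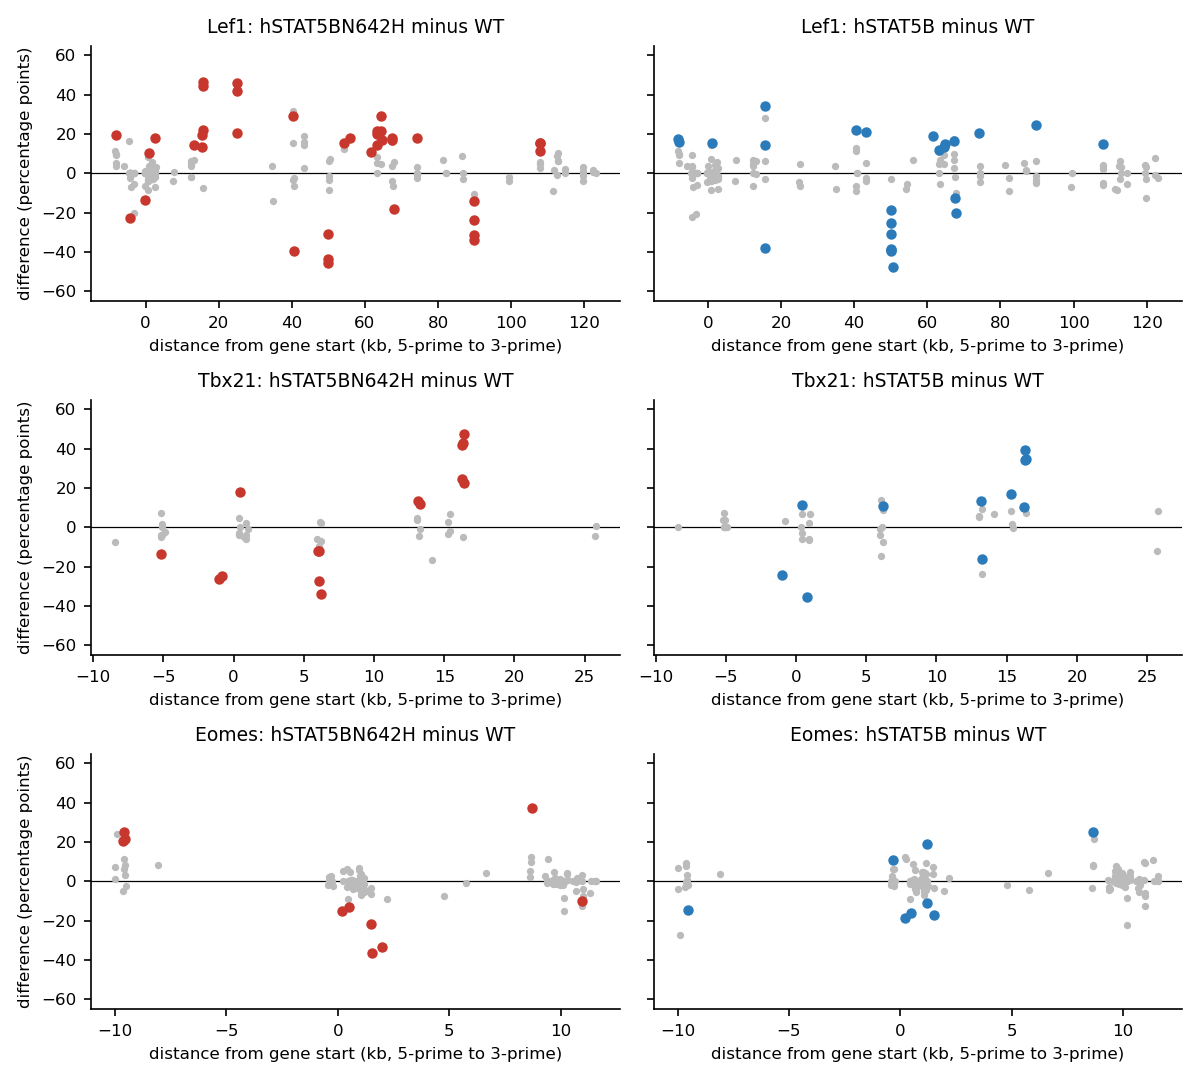
Difference in methylation (percentage points) at each CpG of Lef1, Tbx21 and Eomes against the distance from the gene start (kb), for hSTAT5BN642H minus WT (left) and hSTAT5B minus WT (right). Each point is 1 CpG, and coloured points are 10 points or more apart with no overlap between the libraries. The 24 higher intron CpGs of Lef1 lie between 13.2 and 108 kb, and Tbx21 has lower CpGs near its start and higher ones near 16.3 kb.

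Eomes, whose promoter and first exon form a large CpG island, differed at its introns and far upstream. Its 8 intron CpGs were at 47.3%, 53.2%, 44.7%, 51.0%, 37.6% and 33.2%, and hSTAT5BN642H was 14.9 points below WT (35.4% ± 3.11 against 50.3% ± 4.22, SD, n = 2), outside the spread of the other 4 libraries. With CpGs weighted by their reads the difference was -1.76, and the limma log2 ratio difference was -0.10 ± 0.29 (SE, adjusted p = 0.959). Leaving out WT replicate 1 or 2 gave -17.9 or -11.9. The best covered of the differing CpGs, 1961 bp from the start, had 45 of 66, 33 of 50, 28 of 43, 27 of 46, 17 of 50 and 30 of 89 reads methylated. This is 68.2%, 66%, 65.1% and 58.7% in WT and hSTAT5B, and 34.0% (95% Wilson interval 22.4% to 47.8%) and 33.7% (24.7% to 44.0%) in hSTAT5BN642H. Fisher's exact test on pooled reads gave an adjusted p of 0.000111 at this CpG. A second intron CpG (chr9:118479744) had 18 of 28, 11 of 22, 10 of 23, 4 of 11, 4 of 12 and 1 of 13 reads methylated.

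The 13 CpGs of the upstream flank of Eomes were at 42.5%, 50.4%, 45.9%, 43.8%, 57.0% and 55.9%. Both hSTAT5BN642H libraries were above the other 4, by 9.99 points against WT (adjusted p = 0.736, limma), which was 6.08 without WT replicate 1 and 13.9 without WT replicate 2. Of these, 7 CpGs within 83 bp at -9.66 kb from the start, the sequence shown above, were at 33.9%, 40.5%, 41.8%, 37.1%, 50.8% and 47.3%. A CpG past the 3′ end (chr9:118486909) had 0 of 20, 0 of 18, 6 of 14, 0 of 11, 16 of 46 and 4 of 10 reads methylated, so it was methylated in both hSTAT5BN642H libraries and in 1 of hSTAT5B. The counts of 0 in WT allow shares of up to 15% and 16.7%.

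Zeb2, Prdm1 and Id2 showed less. The 60 intron CpGs of Zeb2, a repressor that acts with T-bet in terminal effector cells, were at 68.7%, 69.7%, 68.7%, 69.7%, 69.1% and 69.0%. For Prdm1, 47 intron CpGs were at 67.3%, 66.6%, 65.6%, 66.4%, 63.9% and 67.4%. The genotypes overlapped in both genes for hSTAT5BN642H against WT. In Prdm1, 6 CpGs around an internal start (chr10:44456681-44456844) were at 74.9%, 80.9%, 85.6%, 88.2%, 81.1% and 81.0%, highest in hSTAT5B. Id2, an inhibitor of E proteins, was at 15.4%, 16.1%, 12.4%, 14.7%, 15.9% and 15.2% over 65 CpGs, lowest in hSTAT5B. The 19 CpGs past its 3′ end were at 44.8%, 42.7%, 33.5%, 40.8%, 43.2% and 36.5%, and the difference of hSTAT5B from WT was -6.61 unweighted but -0.28 by pooled reads. The 6 CpGs past the 3′ end of Prdm1 were at 57.9%, 64%, 55%, 50.6%, 58.8% and 63.5%, also lowest in hSTAT5B, with a difference from WT of -8.11 unweighted and -4.59 by pooled reads. The numbers of CpGs higher and lower in hSTAT5BN642H were 2 and 4 of 93 in Zeb2, 5 and 4 of 103 in Prdm1, and 1 and 3 of 65 in Id2.

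Lef1, a partner of TCF-1 in naive cells, had the largest number of differing CpGs, and 24 of the 28 higher and 7 of the 11 lower ones lay in its introns. The 86 intron CpGs were at 74.9%, 70.0%, 73.2%, 71.3%, 77.3% and 78.9% on 2206 to 4463 reads per library. hSTAT5BN642H was 5.70 points above WT (78.1% ± 1.14 against 72.4% ± 3.44, SD, n = 2), and hSTAT5B differed from WT by -0.18 points. By pooled reads the differences were 7.28 and 3.37, so the sign for hSTAT5B turned (Fisher adjusted p = 0.00115). The median over the introns of all genes was -0.59. limma gave a log2 ratio difference of 0.55 ± 0.33 (SE, adjusted p = 0.776), and Fisher's exact test on pooled reads an adjusted p of 3.08e-20. Leaving out WT replicate 1 gave 8.14 points and leaving out WT replicate 2 gave 3.27, and CpGs with 10 or more reads gave 3.23. In WT, 43 of the 86 CpGs were between 20% and 80%. The shares of all intron CpGs given next were not matched for level, so they compare unlike sets. Of the 86 CpGs, 24 were higher (27.9%, beside 4.44% of all intron CpGs) and 7 lower (8.14%, beside 5.87%). With a library left out, the shares beside are of all CpGs and not of intron CpGs alone. Without WT replicate 1 the counts were 32 (37.2%, all CpGs 7.05%) and 8 (9.3%, all CpGs 8.42%). Without WT replicate 2 the counts were 27 (31.4%, all CpGs 8.67%) and 14 (16.3%, all CpGs 8.63%). Against hSTAT5B they were 25 (29.1%, all intron CpGs 4.05%) and 4 (4.65%, all intron CpGs 5.93%). For hSTAT5B against WT, 11 were higher (12.8%, all intron CpGs 4.45%) and 10 lower (11.6%, all intron CpGs 4.02%). Without WT replicate 1 these were 20 (23.3%, all CpGs 7.35%) and 14 (16.3%, all CpGs 6.53%). Without WT replicate 2 they were 14 (16.3%, all CpGs 9.25%) and 18 (20.9%, all CpGs 6.96%). Without hSTAT5B replicate 2 they were 20 (23.3%, all CpGs 7.33%) and 17 (19.8%, all CpGs 7.53%).

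The 24 higher CpGs spread from 13.2 to 108 kb into the gene, and 21 of them were between 20% and 80% in WT. They averaged 61.5%, 59.6%, 70.2%, 68.8%, 81.6% and 84.7%. Because the CpGs were chosen by the difference of hSTAT5BN642H from WT, the gap between these 2 genotypes follows from the choice. The choice by WT values can also place hSTAT5B between them, so the averages are no evidence of a graded change. Among the 24 CpGs were 4 stretches of at least 3 such CpGs. The first, the intron sequence shown above at 15.5 kb, was at 31.2%, 43.2%, 42.2%, 46.4%, 58.7% and 61.9% over 6 CpGs on 201 to 521 reads. The hSTAT5BN642H libraries were both above the other 4, and the difference from WT was 23.1 points, or 17.1 without WT replicate 1. A stretch at 25 kb (chr3:131135443-131135580) was at 45.0%, 23.1%, 29.0%, 34.9%, 57.3% and 83.3% over 3 CpGs, with the 2 hSTAT5BN642H libraries far apart (SD 18.4). At 63.2 kb (chr3:131173683-131173775) the values were 77.7%, 69.6%, 77.6%, 83.6%, 88.8% and 89.2%. At 108 kb (chr3:131218433-131218476) they were 75.7%, 77.6%, 84.2%, 76.8%, 86.1% and 87.0%.

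Lef1 also had 2 stretches that lay lower in hSTAT5BN642H. At 89.8 kb, where an intron meets a coding exon, 4 CpGs in 37 bp were at 68.2%, 61.7%, 67.8%, 60.3%, 32.8% and 45.4%, on 222 to 442 reads per library. hSTAT5B was at the level of WT, and hSTAT5BN642H was 25.9 points lower (39.1% ± 8.94 against 64.9% ± 4.60, SD, n = 2), or 22.6 without WT replicate 1. The first CpG had 51 of 75, 52 of 85, 45 of 74, 34 of 55, 30 of 110 and 27 of 80 reads methylated. Fisher's exact test on pooled reads gave an adjusted p of 4.08e-07 there, the lowest among the named CpGs. limma gave 0.733. The second stretch, at 50.0 kb (chr3:131160451-131160495), rested on WT replicate 1. Its 3 CpGs were at 66.7%, 18.8%, 7.41%, 5.56%, 3.03% and 2.22%, and the difference from WT was -40.1 points with both WT libraries but -16.2 without WT replicate 1. At its CpG at chr3:131160482 the reads were 11 of 15, 12 of 48, 2 of 18, 1 of 12, 0 of 33 and 1 of 15. The libraries that stood apart here and at Cd8a were the same, and its part in the result was not tested beyond leaving it out. The extended stretch of 6 CpGs to chr3:131160602 was at 69.6%, 38.3%, 21.7%, 22.2%, 30.1% and 33.2%, and hSTAT5B was lowest over it. At chr3:131160585 the reads were 30 of 42, 25 of 42, 9 of 27, 5 of 26, 35 of 73 and 28 of 37.

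**Figure D4:**
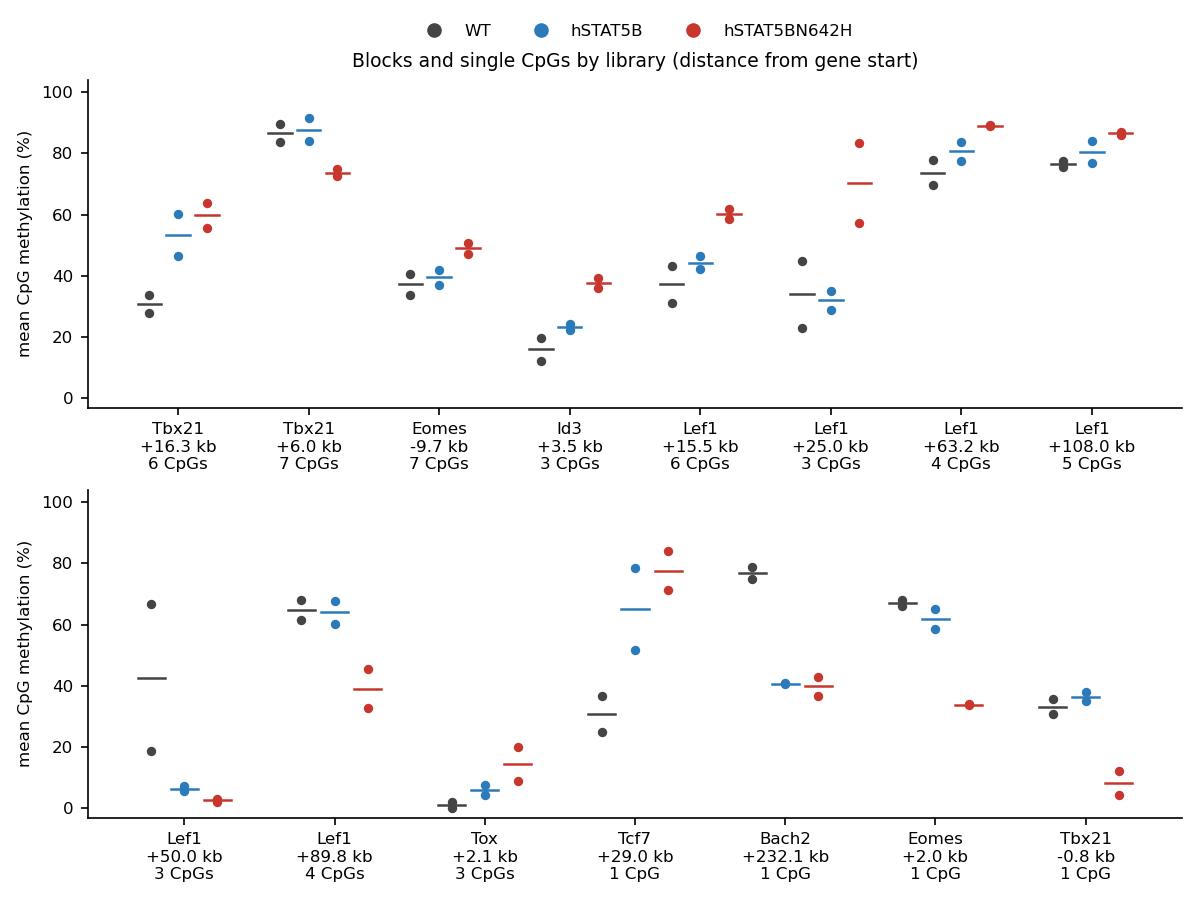
Mean methylation (%) in each library of the 11 stretches of at least 3 differing CpGs and of 4 single CpGs, named by gene, distance of the first CpG from the gene start and number of CpGs. Points are libraries and short lines the means of a genotype. At Lef1 +50.0 kb the 2 WT libraries are far apart, at 66.7% and 18.8%, while at Lef1 +89.8 kb and at the Eomes and Tbx21 single CpGs the hSTAT5BN642H libraries lie below the other 4.

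Of the other naive and memory factors, Tcf7 had the largest difference at a single CpG with 10 or more reads in all libraries. This intron CpG, 28962 bp from the start, had 11 of 30, 8 of 32, 16 of 31, 11 of 14, 42 of 59 and 21 of 25 reads methylated. The WT libraries were at 36.7% (95% Wilson interval 21.9% to 54.5%) and 25% (13.3% to 42.1%), hSTAT5B at 51.6% and 78.6%, and hSTAT5BN642H at 71.2% and 84.0%. The difference of hSTAT5BN642H from WT was 46.8 points (adjusted p = 0.728 by limma, 0.000112 by Fisher's exact test on pooled reads). Over the 13 Tcf7 intron CpGs together the genotypes overlapped, at 44.1%, 28.9%, 36%, 35.5%, 34% and 36.2%. The 9 CpGs upstream of Tcf7 were at 21.1%, 20.2%, 21.1%, 17.6%, 21.4% and 31.2%, a difference of 5.65 points that was 0.72 without hSTAT5BN642H replicate 2 and -0.33 by pooled reads. In Bach2, a repressor that restrains effector genes, a CpG 232113 bp into the introns had 15 of 19, 9 of 12, 9 of 22, 15 of 37, 9 of 21 and 14 of 38 reads methylated. Its mean was 77% in WT, 40.7% in hSTAT5B and 39.8% in hSTAT5BN642H, so both transgenic genotypes lay below WT. The 74 intron CpGs of Bach2 were between 69.6% and 71.4% in all libraries. Past the 3′ end of Bach2, 2 CpGs, too few for the test, were at 41.3%, 48.9%, 45%, 60%, 74.1% and 69.6% on 25 to 83 reads per library, highest in hSTAT5BN642H.

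Id3 and Tox differed in short stretches. For Id3, an E protein inhibitor of the memory side, 3 CpGs past the 3′ end (chr4:136146967-136147097) were at 12.1%, 19.8%, 22.3%, 24.2%, 39.1% and 36.1%, so the 3 genotypes did not overlap. The difference of hSTAT5BN642H from WT was 21.6 points, or 17.8 without WT replicate 1. Another downstream CpG of Id3 (chr4:136148939) was at 96.9%, 93.8%, 78.3%, 95.7%, 46.8% and 86.4%, with the low mean due to 1 hSTAT5BN642H library. In Tox, 3 intron CpGs 2.12 kb from the start (chr4:6989408-6989438) were at 2.13%, 0, 4.39%, 7.65%, 8.83% and 19.9% (the 0 is of 65 reads, which allow up to 4.62%). The 57 Tox intron CpGs together were at 50.8% to 52.5%. By pooled reads hSTAT5B was 7.33 points above WT there (adjusted p = 0.893 by limma, 2.74e-10 by Fisher's exact test) and hSTAT5BN642H was 2.88 above.

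The motif bound by STAT5 dimers, TTCNNNGAA (the same on both strands), was searched within 150 bp of each CpG. It was near 75 of the 1072 members (7%) and near 6.93% of all CpGs. It was near 9 of the 67 higher members (13.4%), 0 of the 53 lower ones (0%) and 0 of the 11 named CpGs (0%). Neighbouring CpGs can share a match and are then not independent. The Lef1 stretch at 63.2 kb, which was higher in hSTAT5BN642H, held 1 match. Prdm1 (31.1% of its CpGs) and Bach2 (12.2%) had the largest shares, and Lef1 had 3.92%. A match of these letters is a description of the sequence and does not locate a bound site.

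The wider network of CD8 T cell factors had 0 limma calls among its windows. Over 12 further factors of the naive and memory side, 56 of 1543 CpGs were higher in hSTAT5BN642H than in WT (3.63%, all CpGs 3.9%) and 110 were lower (7.13%, all CpGs 5.04%), with 0 windows called and a median window difference of -0.29. Over 18 factors of the effector and exhausted side, 96 of 1802 CpGs were higher (5.33%) and 81 lower (4.50%), with 0 windows called and a median of 0.33. Without WT replicate 1 the shares were 7.13% and 9.72% on the naive side and 8.60% and 7.94% on the effector side (all CpGs 7.05% and 8.42%). The largest window differences were at Zfp683 (Hobit, a Blimp-1 homolog of resident lymphocytes), Batf (an AP-1 factor of effector cells) and Runx1. Zfp683 was at 77.3%, 76.4%, 72.3%, 68.6%, 68.1% and 65.7%, with WT highest. Batf was at 38.4%, 41.6%, 49.5%, 42.9%, 44.7% and 50.4%, with WT lowest. Runx1 was at 75.4%, 77.0%, 76.1%, 74.9%, 72.5% and 71.4%, with hSTAT5BN642H lowest.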

How the data were processed

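RRBS reads of 6 libraries were processed by the authors, whose notes name Trimmomatic and BSMAP with GRCm38/mm10 (no versions given). The deposited files list each CpG with methylated and total reads as text (m/n), the other column used here, and a score of 1000 times that ratio, which matched at every row. Columns of reads were used, and the score only as a check. CpGs with 5 or more reads in all 6 libraries were kept and assigned to protein-coding genes of GENCODE M21. Parts with 3 and windows with 10 or more CpGs were tested with limma 3.58.1 (R 4.3.3) on log2((methylated + 1)/(unmethylated + 1)) of summed reads, all 6 libraries in 1 fit, Benjamini-Hochberg adjusted over the whole table. Levels are percent. The scripts were run on simulated data with known shifts, where limma with 2 libraries per genotype made no call even for the large ones. Groups came from the titles, with 2 mice per genotype by the series' design. CpG islands were computed from the genome (200 bp or more, GC 50% or more, observed to expected CpG 0.6 or more). Intervals and limits for 0 reads cover counting error only, since PCR copies were not marked.

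The members, gene lists and named CpGs were chosen with earlier results of these data known. Named were all 10 genes, the 10 CpGs with the largest difference of hSTAT5BN642H from WT and the 5 of hSTAT5B (10 or more reads in all libraries, no overlap), and the 3 network windows with the largest difference. Stretches (3 or more differing CpGs, gaps up to 200 bp) and CpGs with 20 or more reads in all libraries and 20 points apart were added after the values were seen. Alternatives covered reads per CpG, offset, moderation, samples, test, deep CpGs, replicate block and left-out libraries. One gene of the lists is not reported by itself.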

Additional observations from a re-analysis of the deposited data

How the results depend on the processing

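limma called 0 CpGs, gene parts and gene windows in each comparison, and so did the fits with 10 or more reads, a mean-variance trend, only the 2 genotypes compared, CpGs with 1000 or more reads left out, and each library left out (0 to 0). At an unadjusted p under 0.05 there were 73890, 57005 and 73749 CpGs for hSTAT5BN642H against WT, hSTAT5B against WT and hSTAT5BN642H against hSTAT5B. In that order, the quasi-binomial model called 0, 0 and 0 CpGs, 53, 2 and 37 parts, and 6, 1 and 4 windows, while Fisher's exact test on pooled reads, which by construction ignores differences among mice, called 10208, 2224 and 7912 CpGs, 9934, 5253 and 9727 parts, and 7351, 4925 and 7793 windows. With 3 or more reads 1, 0 and 1 windows were called, and with an offset of 0.5 1 window for hSTAT5BN642H against hSTAT5B (the cause was not tested).

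With the replicate number as a term (replicate block) 0 features were called. Replicate numbers did not pair the samples: deviations of replicate 1 from the group means correlated by 0.0010 to 0.0020 between genotypes over CpGs, and by -0.0361 to 0.0176 over windows.

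Counts of member CpGs at 10 or more reads (626 CpGs) were fewer by construction. For hSTAT5BN642H against WT, 43 were higher (6.87%, all CpGs 3.51%) and 33 lower (5.27%, all CpGs 4.59%). For hSTAT5B against WT, 25 were higher (3.99%, all CpGs 3.57%) and 25 lower (3.99%, all CpGs 3.13%). Leaving out 1 library eases the demand of no overlap by construction. For hSTAT5BN642H against WT it gave 90 to 108 higher (8.4% to 10.1%, all CpGs 6.13% to 8.67%) and 73 to 97 lower (6.81% to 9.05%, all CpGs 8.42% to 9.36%). For hSTAT5B against WT it gave 74 to 89 higher (6.9% to 8.3%, all CpGs 7.33% to 9.25%) and 76 to 95 lower (7.09% to 8.86%, all CpGs 6.53% to 8.09%). Of 1572 recomputed differences in level, 298 moved by more than the spread between replicates (1 SD) and 258 had the other sign. Among the latter was the Tcf7 upstream flank for hSTAT5BN642H against WT, at 5.65 unweighted and -0.33 by pooled reads.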
